A study of Mus musculus with 4 samples.

Results

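The small proline-rich proteins are encoded by the Sprr genes, of which 9 (Sprr1a, Sprr1b, Sprr2b, Sprr2d, Sprr2f, Sprr2g, Sprr2h, Sprr3 and Sprr4) were followed here out of 23420 gene rows. They were taken by name from a table of read counts and not by a rule on their values. Earlier results of these data were known when they were chosen. A further 6 rows of the same family were read beside them. RNA sequencing had been done on 2 mouse keratinocyte lines, MK2 and MK1, with 2 biological replicate cultures of each, in a series concerned with regulation by p63 in mouse and human epidermis. Both lines are labelled only as keratinocyte lines, with no treatment, genotype, strain, age, passage or culture condition, so that each line stood for itself alone. The counting command recorded in the header of the table calls the lines MKU and MK, whereas its columns and the sample labels call them MK2 and MK1, and the column names were followed. Levels are given as CPM (a gene's read count scaled to a common library size) or, where genes are compared with each other, as TPM (which also divides by exon length).

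Small proline-rich proteins are precursors of the cornified envelope, the crosslinked protein shell that replaces the plasma membrane of the outermost epidermal cells. Transglutaminases join them to loricrin, involucrin and to each other through glutamines and lysines at their ends, and the proline-rich repeats between the ends act as a flexible bridge. In skin the family is known to rise in differentiating and in injured or inflamed epidermis, and the genes lie together in the epidermal differentiation complex. Their promoters have been studied as targets of AP-1, ETS, octamer-binding and KLF transcription factors.

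The 9 genes lay within 183789 bases of chromosome 3, from 92316705 to 92500493 on mm10, the build of the count table. The Sprr2 genes were on the plus strand, and Sprr1b, Sprr3, Sprr1a and Sprr4 followed on the minus strand. Of the 9, only Sprr4 had a single exon in the table, and the other 8 had 2 exons each. None of the 9 overlapped another row. The repeats are shown first because they could make the reads of these genes hard to tell apart. In each line below the copies of a 12-base unit of the proline-rich repeats, found on the coding strand, are in capitals, and the stretches are 93 coding bases from the GENCODE M21 transcripts on GRCm38, beginning at the first copy. The genes are Sprr1b (chr3:92437388-92437480, minus strand) and Sprr1a (chr3:92484468-92484560, minus strand), the Sprr1 pair, and Sprr2g (chr3:92374710-92374802, plus strand) and Sprr2h (chr3:92386701-92386793, plus strand).
Sprr1b: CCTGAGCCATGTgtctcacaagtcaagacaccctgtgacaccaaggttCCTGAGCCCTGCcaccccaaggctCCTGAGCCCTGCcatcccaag
Sprr1a: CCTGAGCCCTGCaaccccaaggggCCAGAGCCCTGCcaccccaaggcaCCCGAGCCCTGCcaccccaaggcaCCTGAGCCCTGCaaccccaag
Sprr2g: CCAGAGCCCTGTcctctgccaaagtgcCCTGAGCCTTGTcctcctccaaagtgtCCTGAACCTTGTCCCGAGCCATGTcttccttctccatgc
Sprr2h: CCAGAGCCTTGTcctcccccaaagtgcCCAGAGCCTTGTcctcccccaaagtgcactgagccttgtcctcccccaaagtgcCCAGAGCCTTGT

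The 12-base unit occurred 13 times in the coding sequence of Sprr1b and 11 times in that of Sprr1a. It occurred 5 times each in Sprr2d and Sprr2h, 4 times each in Sprr2f and Sprr2g and 3 times in Sprr2b. Sprr3 held 2 copies and Sprr4 held 0, so that the unit did not mark every member. The coding stretch of Sprr2g was 232 bases, which is no multiple of 3, and GENCODE lists that transcript as a polymorphic pseudogene. Coding sequences of Sprr1a and Sprr1b were 78.8% identical, and those of Sprr2g and Sprr2f 88.4%. Exact sharing was nevertheless limited. No stretch of 50 bases in the transcripts of Sprr1a, Sprr1b, Sprr2g, Sprr2h, Sprr3 or Sprr4 occurred in the transcripts of any other gene (0% of stretches). The share was 13.7% in Sprr2b, with the Sprr2a genes, 4.27% in Sprr2d, with Sprr2i and Sprr2e, and 0.714% in Sprr2f, with Sprr2e. The read length is not given in the sources used here, and the recorded counting command names no option for reads with several alignments. Counts of the Sprr2 genes remain uncertain to that extent.

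One gene held most of the family's counts in every library. Sprr1b, an envelope precursor of stratified epithelia, was counted 2592 and 2207 times in the MK2 cultures and 2874 and 1923 times in the MK1 cultures. It made up 96.9% and 87% of the counts of the 9 genes in MK2, and 93.6% and 97.3% in MK1. Over all 15 Sprr rows its share was 81.3% and 63.2% in MK2, and 78.2% and 77.3% in MK1. Per length it stood at 254 and 188 TPM in MK2 and at 244 and 181 TPM in MK1, so that the cultures of the lines overlapped. In RNA from whole cultures, fewer cells of a type and less RNA per cell cannot be told apart. Its fold change was 0.12 ± 0.18 on the log2 scale (SE, 95% interval -0.31 to 0.56), which did not pass the threshold (adjusted p = 0.6 after Benjamini-Hochberg correction of edgeR's quasi-likelihood test). The sign of that difference turned without MK2 replicate 1 (-0.09) and without MK1 replicate 2 (-0.07).

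**Figure D1:**
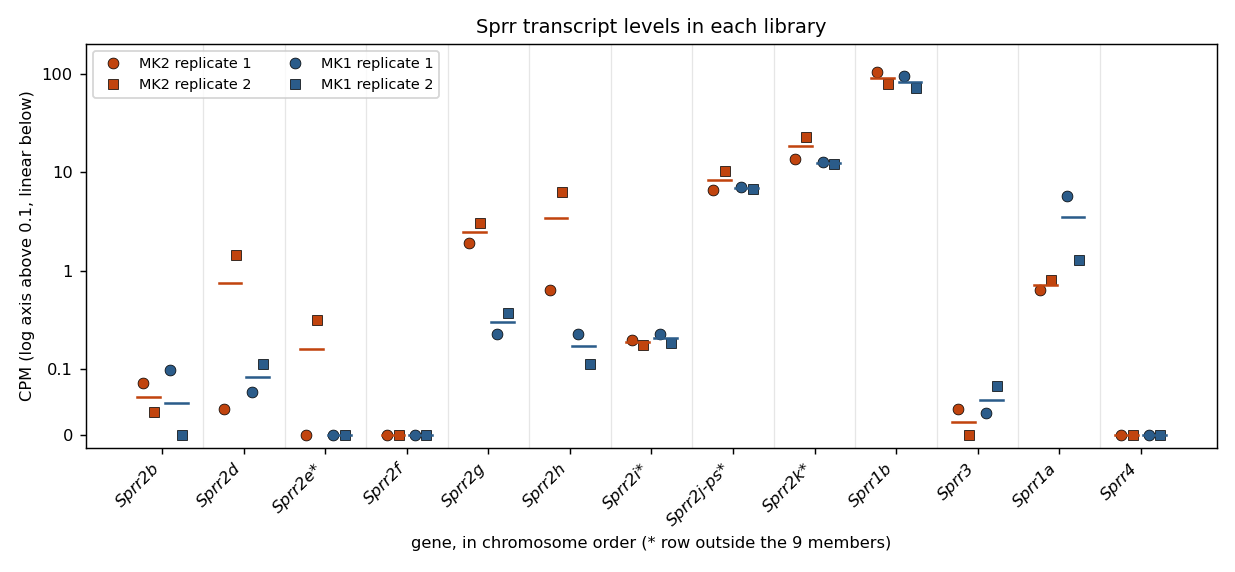
CPM of each Sprr row in the 4 libraries, in chromosome order, on a logarithmic axis above 0.1 and a linear one below. Circles are replicate 1, squares replicate 2, bars the mean of the 2 cultures, and asterisks mark rows outside the 9 genes. Sprr1b lies between 71.6 and 103 CPM in all libraries, whereas Sprr2g and Sprr2h are higher in MK2 and Sprr1a is higher in MK1.

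The other members lay far below Sprr1b. After Sprr1b, the highest members in MK2 were Sprr2h (mean 9.23 TPM), Sprr2g (7.57), Sprr2d (2.16) and Sprr1a (1.83). In MK1 they were Sprr1a (9.42 TPM), Sprr2g (0.966), Sprr2h (0.481) and Sprr2d (0.272). The order in MK2 rested on replicate 2, since in MK2 replicate 1 Sprr2g (5.91 TPM) lay above Sprr2h (1.72), and Sprr1a (1.62) above Sprr2d (0.118). In both MK1 cultures Sprr1a (15.4 and 3.41 TPM) lay above Sprr2g (0.749 and 1.18), and Sprr2g above Sprr2h (0.652 and 0.309). Over the 4 libraries the ranges of Sprr1a (1.62 to 15.4 TPM), Sprr2h (0.309 to 16.7) and Sprr2g (0.749 to 9.23) overlapped. Sprr1b, from 181 to 254 TPM, lay above all of them in every library.

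Of the 9 genes, 4 passed the low-count filter, which asked for about 0.362 CPM in at least 2 libraries. Of these 4, 2 were higher in MK2 (Sprr2g and Sprr2h), 1 was lower (Sprr1a) and 1 did not pass the test (Sprr1b). Among all 12479 tested genes, 54.6% were called (edgeR's quasi-likelihood test, adjusted p under 0.05), 25.9% as higher and 28.6% as lower in MK2, so that 3 calls among 4 tested members is a share to be read against a high background. Sprr2g and Sprr2h passed the filter through their MK2 libraries, so that their being called higher there is partly set by the filter. Without MK1 replicate 1 the number of members called was 1, which was Sprr2g, and without MK1 replicate 2 it was 2, which were Sprr2g and Sprr1a.

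Sprr2g, a member of the Sprr2 subfamily at 92373915 to 92375229, had 48 and 86 counts in the MK2 cultures and 7 and 10 counts in the MK1 cultures. These were 1.91 and 3.03 CPM in MK2 and 0.23 and 0.372 CPM in MK1. Both MK2 cultures lay above both MK1 cultures, and the mean was 2.47 ± 0.796 CPM in MK2 and 0.301 ± 0.101 CPM in MK1 (SD, n = 2 cultures each). Non-overlapping cultures with MK2 on top were found for 39.5% of all tested genes. The gene was 8.21-fold higher in MK2, 3.04 ± 0.41 on the log2 scale, with an adjusted p of 0.00116 in edgeR's quasi-likelihood test. It kept that call under all 12 alternatives tried. It was also called beyond 2-fold by glmTreat, edgeR's test against a minimum change (adjusted p = 0.00581; 3.25% of all tested genes were called so in this direction), which no longer held when MK1 replicate 1 was left out (adjusted p = 0.0858).

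Sprr2h, its neighbour at 92385685 to 92387319, had 16 and 179 counts in the MK2 cultures and 7 and 3 counts in the MK1 cultures. In CPM these were 0.636 and 6.31 in MK2, and 0.23 and 0.112 in MK1. The lines did not overlap, but MK2 replicate 2 alone held most of the reads. The log2 fold change was 4.30 ± 1.15 (95% interval 1.57 to 7.03), with an adjusted p of 0.018 in edgeR's quasi-likelihood test. Without MK2 replicate 2 it was 1.84 (adjusted p = 0.0389). Leaving out either MK1 culture ended the call, with an adjusted p of 0.104 without replicate 1 and 0.116 without replicate 2. It was not called beyond 2-fold with all libraries (glmTreat, adjusted p = 0.0744), but was without MK2 replicate 1 (adjusted p = 8.43e-05) and with the crossed replicate block (adjusted p = 1.14e-05).

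Sprr1a, the nearest relative of Sprr1b and a gene also known in mouse from regenerating nerve, moved the other way. At 92483954 to 92485881, it had 16 and 23 counts in the MK2 cultures and 175 and 35 counts in the MK1 cultures. In CPM these were 0.636 and 0.811 in MK2, and 5.76 and 1.3 in MK1. Both MK1 cultures lay above both MK2 cultures (as for 40.9% of all tested genes), and MK1 replicate 1 lay well above MK1 replicate 2. Its log2 fold change was -2.28 (SE 0.68, 95% interval -3.91 to -0.65), with an adjusted p of 0.0276 in edgeR's quasi-likelihood test. The size rested on MK1 replicate 1, without which the log2 fold change was -0.84 (adjusted p = 0.213), and leaving out MK2 replicate 1 ended the call as well (-2.13, adjusted p = 0.0583). Beyond 2-fold it was not called with all libraries (glmTreat, adjusted p = 0.181; 10.1% of all tested genes were called in this direction), but was without MK1 replicate 2 (adjusted p = 0.0116) and with the crossed replicate block (adjusted p = 0.00785).

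**Figure D2:**
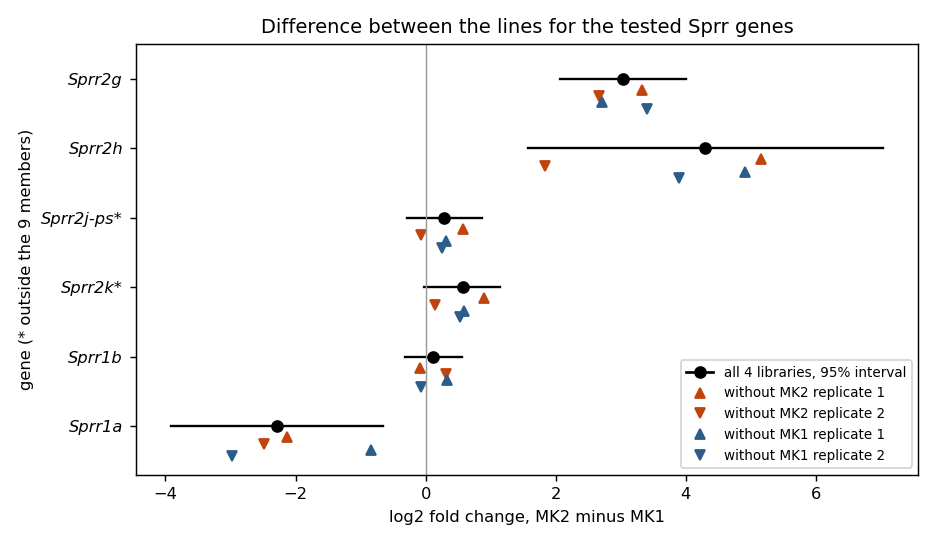
Log2 fold change of MK2 minus MK1 for the 6 tested Sprr rows, with the 95% interval of the fit to all 4 libraries (black) and the value with each library left out (triangles). Sprr2g stays between 2.66 and 3.40, Sprr2h spans 1.84 to 5.15, Sprr1a spans -2.98 to -0.84, and Sprr1b spans -0.09 to 0.33.

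The remaining 5 members were too scarce to be tested. Sprr2d had 1 and 41 counts in the MK2 cultures and 2 and 3 counts in the MK1 cultures, so that a single library held nearly all of its reads. With no low-count filter it was called higher in MK2 (log2 fold change 3.06, 95% interval 0.84 to 5.28, adjusted p = 0.0266 in edgeR's quasi-likelihood test), but not in DESeq2 (adjusted p = 0.0892). It also entered the test and was called without MK2 replicate 1 (3.99, adjusted p = 0.000711), but not without either MK1 culture (adjusted p = 0.324 without replicate 1 and 0.242 without replicate 2). Sprr2b had 2 and 1 counts in MK2 and 3 and 0 in MK1. Sprr3, best known from oesophageal and oral epithelium, had 1 and 0 counts in MK2 and 1 and 2 in MK1. Both stayed at or under 3 counts in every library, where no difference was detectable. Sprr2f, known in mouse from the uterus, and Sprr4, known in human skin from ultraviolet exposure, had 0 counts in all 4 libraries. A count of 0 allows up to 3 counts, between 0.0991 and 0.119 CPM depending on the library, and such limits cover counting error only.

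The 6 other rows of the family fell into 3 kinds. Sprr2k, between Sprr2h and Sprr1b, was the second most abundant row of the family at 43 and 71.1 TPM in MK2 and 41.7 and 39.2 TPM in MK1. Its cultures did not overlap, and its log2 fold change of 0.57 ± 0.25 did not pass edgeR's quasi-likelihood test (adjusted p = 0.0901). Leaving out MK2 replicate 1 gave a call (0.90, adjusted p = 0.00193), as did fitting every gene without a filter (0.57, adjusted p = 0.0414) and crossing the replicate block (0.53, adjusted p = 0.0182). Sprr2j-ps, named as a pseudogene although GENCODE lists it as protein coding, had 19.7 and 30.3 TPM in MK2 and 22.2 and 20.7 TPM in MK1, and was not called (adjusted p = 0.34 in edgeR's quasi-likelihood test) except without MK2 replicate 1 (0.58, adjusted p = 0.0351). Sprr2i had 5 counts in each MK2 culture and 7 and 5 in the MK1 cultures. Sprr2e had 0 and 9 counts in MK2 and 0 in both MK1 cultures. Sprr2a1 and Sprr2a2 had 0 counts in all 4 libraries, but the table gives both the same coordinates, and featureCounts assigns no read to overlapping genes unless told to, so their level was not measured.

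The cultures of 1 line differed from each other in several of these genes. In MK2, replicate 2 stood 9.93-fold above replicate 1 for Sprr2h (95% interval 5.95 to 17.8, exact binomial, counting error only, as for the other ratios between cultures). The ratio was 36.4 for Sprr2d (6.18 to 1472), resting on 1 count in replicate 1. For Sprr2g it was 1.59 (1.1 to 2.31), for Sprr2k 1.68 (1.47 to 1.92) and for Sprr2j-ps 1.57 (1.29 to 1.91). Sprr1b went the other way, with a ratio of 0.756 (0.714 to 0.8). Among all tested genes, 2.27% stood more than 2-fold higher in MK2 replicate 2 than in MK2 replicate 1, and the median difference was 0.00 on the log2 scale.

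In MK1 the Sprr1 pair differed between the cultures beyond counting error. Replicate 2 over replicate 1 was 0.226 for Sprr1a (0.153 to 0.327) and 0.758 for Sprr1b (0.715 to 0.803). For Sprr2k (0.961, 0.826 to 1.12) and Sprr2j-ps (0.953, 0.778 to 1.17) the intervals included 1. Among all tested genes, 0.849% stood more than 2-fold lower in MK1 replicate 2 than in MK1 replicate 1. Summed over the 11 Sprr2 rows, the level was 23 and 44.5 CPM in the MK2 cultures and 20.5 and 19.6 CPM in the MK1 cultures. MK2 replicate 1 thus lay close to both MK1 cultures in that sum, which was mostly Sprr2k and Sprr2j-ps, and MK2 replicate 2 lay apart. For both tested Sprr2 members MK2 replicate 1 lay above both MK1 cultures. It had 1.91 CPM of Sprr2g against 0.23 and 0.372 CPM, and 0.636 CPM of Sprr2h against 0.23 and 0.112 CPM.

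**Figure D3:**
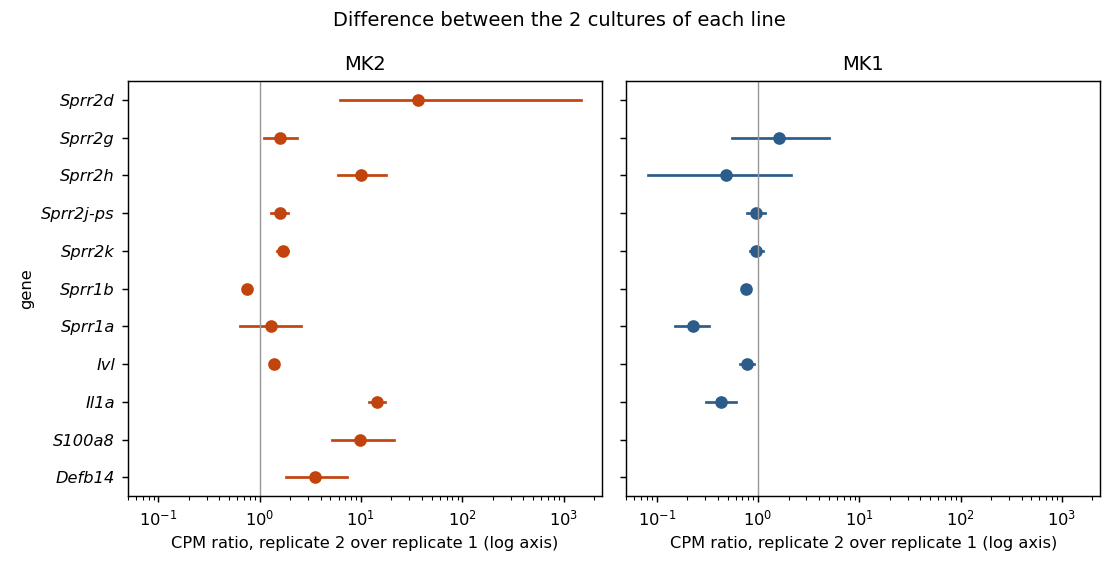
Ratio of CPM in replicate 2 over replicate 1 within MK2 (left) and within MK1 (right), on a logarithmic axis, with exact 95% counting intervals. Selected Sprr rows, Ivl, Il1a, S100a8 and Defb14 are drawn where the line had at least 10 counts and none at 0. Krt17 and Krt6a, with ratios of 1.19 and 1.08 in MK2, are not drawn. In MK2 the ratios of Sprr2d and Sprr2h lie far above 1 beside those of Il1a and S100a8, and in MK1 that of Sprr1a lies at 0.226.

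Of the 5 named genes of the barrier stress list described further on, 3 differed more than 2-fold between the same MK2 cultures. The 5 were named for a large change between the lines or for abundance, which can favour genes high in a single MK2 culture. That share is therefore not one of the whole list. Il1a, an epidermal cytokine released on injury, had 5.13 and 73.4 CPM in the MK2 cultures and 4.21 and 1.82 CPM in the MK1 cultures. S100a8, a calcium-binding alarm protein, had 0.397 and 3.92 CPM in MK2 and 0.197 and 0 CPM in MK1. The antimicrobial peptide gene Defb14 had 0.477 and 1.66 CPM in MK2 and 0.0329 and 0.0372 CPM in MK1. Replicate 2 over replicate 1 in MK2 was 14.3 for Il1a (12 to 17.2), 9.85 for S100a8 (5.16 to 21.1) and 3.48 for Defb14 (1.82 to 7.2). It was 1.19 for Krt17 and 1.08 for Krt6a, and over the tested genes of that list the median was 0.44 on the log2 scale in MK2 and -0.14 in MK1. Their part in the Sprr2h and Sprr2d values was not tested.

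Proximal promoters are shown because the silent and the expressed Sprr2 genes can be compared there. RefSeq promoters on GRCm38.p6, the assembly that mm10 names, were matched for 8 of the 9 members. The member without one was Sprr2g, and the row Sprr2j-ps had none either, so that neither enters the comparison. Each line gives the 210 bases before the transcript start, 5′ to 3′ on the gene's strand, with matches to an AP-1 pattern (TGANTCA), the octamer (ATGCAAAT) and a TATA pattern (TATAAA), on either strand, in capitals. They are Sprr2h (chr3:92385475-92385684, plus strand), which was higher in MK2, Sprr2f (chr3:92364977-92365186, plus strand), which had 0 counts, Sprr2k (chr3:92432372-92432581, plus strand), the abundant Sprr2 row, Sprr1a (chr3:92485882-92486091, minus strand), which was lower in MK2, and Sprr1b (chr3:92438780-92438989, minus strand), which led the family.
Sprr2h: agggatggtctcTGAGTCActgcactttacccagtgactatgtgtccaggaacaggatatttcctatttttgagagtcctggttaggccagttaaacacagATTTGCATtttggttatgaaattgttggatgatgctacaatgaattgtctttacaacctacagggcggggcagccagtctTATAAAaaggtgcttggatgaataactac
Sprr2f: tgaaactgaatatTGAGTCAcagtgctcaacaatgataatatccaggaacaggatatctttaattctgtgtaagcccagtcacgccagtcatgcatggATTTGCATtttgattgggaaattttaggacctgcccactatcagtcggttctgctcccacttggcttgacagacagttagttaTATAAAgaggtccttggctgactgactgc
Sprr2k: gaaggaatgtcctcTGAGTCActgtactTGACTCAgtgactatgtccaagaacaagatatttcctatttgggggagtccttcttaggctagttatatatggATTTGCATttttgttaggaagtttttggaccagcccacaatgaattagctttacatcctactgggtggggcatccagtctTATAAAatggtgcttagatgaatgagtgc
Sprr1a: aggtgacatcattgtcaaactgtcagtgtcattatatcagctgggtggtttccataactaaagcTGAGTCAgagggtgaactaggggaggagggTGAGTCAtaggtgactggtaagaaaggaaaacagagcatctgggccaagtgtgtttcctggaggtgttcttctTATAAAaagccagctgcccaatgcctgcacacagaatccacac
Sprr1b: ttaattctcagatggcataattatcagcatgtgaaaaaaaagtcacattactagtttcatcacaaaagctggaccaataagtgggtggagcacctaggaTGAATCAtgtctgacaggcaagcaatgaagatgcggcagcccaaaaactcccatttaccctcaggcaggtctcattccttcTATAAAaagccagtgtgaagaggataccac

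Of 10 Sprr2 promoters, 7 shared a common layout. In Sprr2b, Sprr2d, Sprr2e, Sprr2f, Sprr2h, Sprr2i and Sprr2k the TATA match began at -29 from the transcript start, the octamer match between -112 and -108, and an AP-1 match between -198 and -193. Sprr2k had a second AP-1 match at -182. For these 3 patterns this layout was the same in Sprr2f, with 0 counts in every library, in Sprr2h, with up to 6.31 CPM, and in Sprr2k, with up to 22.9 CPM. Sprr1b and Sprr1a lacked the octamer letters in this window and carried AP-1 matches at -111 in Sprr1b and at -146 and -116 in Sprr1a. Sprr2a1, Sprr2a2, Sprr2a3 and Sprr4 held none of these 3 patterns.

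Over the promoter windows of 14 Sprr genes, from 250 bases before to 50 after the start, 9 held the AP-1 pattern, 7 the octamer and 10 the TATA pattern. The same patterns were found in 7.81%, 1.74% and 13.6% of 32851 RefSeq promoters of that length. An ETS pattern (AGGAAG) was in 7 of 14 and in 35.4% of all promoters, a KLF pattern (CACCC) in 7 of 14 and in 57.5%, and a STAT pattern (TTCNNNGAA) in 2 of 14 and in 8.3%. In Sprr1a the KLF match at -119 overlapped the AP-1 match at -116. Sprr2k had an ETS match at -94 and a KLF match at -47, Sprr2f an ETS match at -248, and Sprr2h had neither pattern. The part of these differences in the levels was not tested. These 7 Sprr2 promoters resemble one another, so these shares are not independent, and a match is a run of letters and not a shown binding site.

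**Figure D4:**
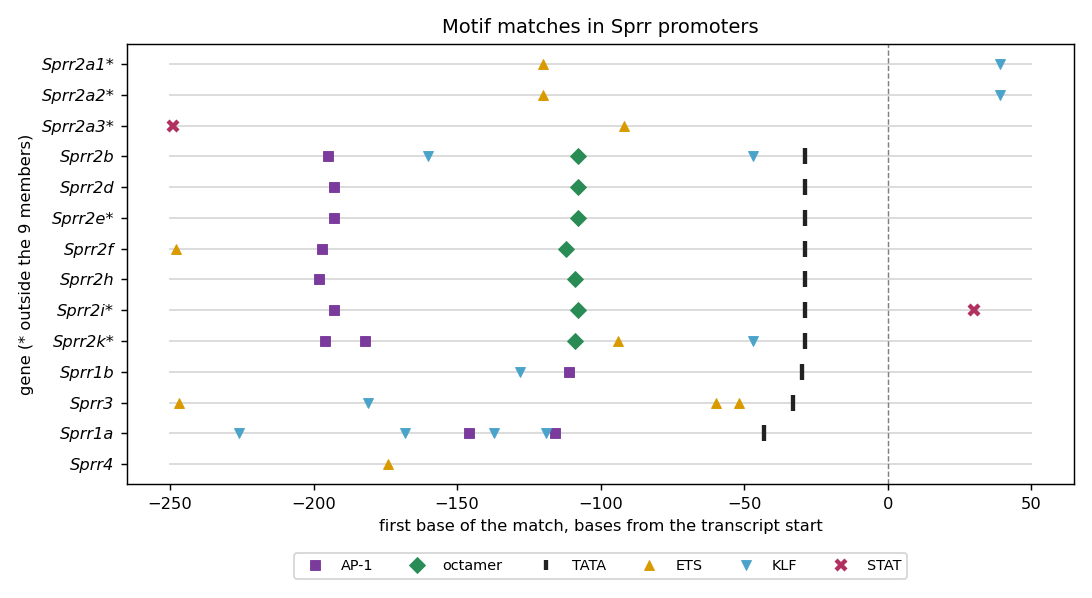
First base of each motif match in 14 Sprr promoters, in bases from the transcript start (dashed line), on either strand; asterisks mark genes outside the 9 members. In 7 Sprr2 genes the TATA match stands at -29, the octamer between -112 and -108 and an AP-1 match between -198 and -193.

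The neighbours of the cluster were mostly silent, with involucrin as the exception. Within 200 kb of the outermost members the table had 25 rows, of which 15 were Sprr rows. Ivl, an envelope precursor at 92570900 to 92573735, had 48.8 and 66.6 CPM in the MK2 cultures and 11.7 and 9.16 CPM in the MK1 cultures. It rose by 2.46 ± 0.20 on the log2 scale (adjusted p = 0.000169 in edgeR's quasi-likelihood test). Prr9, a proline-rich gene, had 7 and 6 counts in MK2 and 0 in both MK1 cultures, and Smcp, a sperm mitochondrial protein gene, had 2 and 4 counts in MK2 and 0 in both MK1 cultures. Lelp1 and the late cornified envelope genes Lce1a2 and Lce1d had 0 counts everywhere, and Lce1a1, Lce1b, Lce1c and Lce6a had at most 3 counts in any library.

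Other proteins of the cornified envelope changed in both directions. Of 46 listed names, 44 had a row, 16 of those had 0 counts in all 4 libraries and 17 were tested. Of these, 5 were higher in MK2, 7 were lower and 5 did not pass, with a median log2 fold change of -0.38 beside -0.01 over all tested genes. Over all tested genes, 25.9% were called higher in MK2 and 28.6% lower. Among those that rose were Ivl and Lce1f, a late envelope protein with 1.75 and 3 CPM in MK2 and 0 and 0.0372 CPM in MK1. Lce1f passed the low-count filter through its MK2 libraries, so that its being called higher there is partly set by the filter. Among those that fell were Anxa1, an annexin crosslinked into envelopes, with 1219 and 1056 CPM in MK2 and 3991 and 4275 CPM in MK1, and Tchh, which encodes trichohyalin, with 6 CPM in each MK2 culture and 24.5 and 20.7 CPM in the MK1 cultures. The calcium-binding protein gene S100a11, highest in mean TPM over the 4 libraries although below Anxa1 in both MK1 cultures, had a log2 fold change of -0.47 (adjusted p = 0.0436 in edgeR's quasi-likelihood test), and that call was lost under the replicate block (adjusted p = 0.0572) and without MK2 replicate 1, MK1 replicate 1 or MK1 replicate 2 (adjusted p = 0.0785, 0.19 and 0.149). Without MK2 replicate 1, 8 members of the list were called higher, and without MK1 replicate 1, 3 were called higher and 3 lower.

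Genes of the barrier stress response changed in both directions. Of 19 tested, 8 rose, 4 fell and 7 did not pass, with a median log2 fold change of 0.67. The median over all tested genes was -0.01, with 25.9% of them called higher in MK2 and 28.6% lower. Krt17, a wound keratin, rose to 755 and 901 CPM in the MK2 cultures, against 3.65 and 3.31 CPM in the MK1 cultures. Krt6a, another wound keratin and the most abundant tested member, had 2211 and 2397 CPM in MK2 and 1293 and 1327 CPM in MK1. The rises of Il1a (3.69 on the log2 scale), S100a8 (4.33) and Defb14 (4.78) passed edgeR's quasi-likelihood test (adjusted p = 0.0284, 0.0276 and 0.00515). S100a8 and Defb14 passed the low-count filter through their MK2 libraries. Their being called higher there, and the list's count of rises, are thus partly set by the filter. Without MK2 replicate 2 the values were 0.75 for Il1a (adjusted p = 0.164) and 1.89 for S100a8 (adjusted p = 0.158), and the calls of all 3 ended without MK1 replicate 1 (adjusted p = 0.117, 0.0824 and 0.0593). Leaving out MK1 replicate 2 ended the calls of Il1a and S100a8 (adjusted p = 0.165 and 0.143), as did the replicate block (adjusted p = 0.124 and 0.0539), and DESeq2 did not call S100a8 (adjusted p = 0.118). Without MK2 replicate 2, 5 members of this list were called higher and 6 lower. Without MK1 replicate 1 or MK1 replicate 2, 5 were called higher and 3 lower, and without MK2 replicate 1, 12 were called higher and 3 lower.

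Genes reported to regulate Sprr genes, most of them transcription factors and all named factors here, changed in both directions, with more of them lower. Of 33 tested, 5 rose, 14 fell and 14 did not pass, with a median of -0.33 on the log2 scale. Among all tested genes 25.9% were called higher in MK2 and 28.6% lower, with a median of -0.01. The epithelial ETS factors Ehf and Elf3 had the largest decreases among members with at least 1 CPM in either line. Ehf had 0.0397 and 0.0353 CPM in MK2, from 1 count in each culture, and 7.2 and 2.83 CPM in MK1. It passed the low-count filter through its MK1 libraries, so that its being called lower in MK2 is partly set by the filter. Elf3 had 1.15 and 2.05 CPM in MK2 and 24 and 24.2 CPM in MK1 (log2 fold change -3.90 ± 0.26, adjusted p = 7.63e-05 in edgeR's quasi-likelihood test). Irf1, a regulator of interferon responses, had a log2 fold change of -3.42. Ets2, the factor with the highest mean TPM over the 4 libraries, had 217 and 221 CPM in MK2 and 382 and 391 CPM in MK1. In MK2 alone Junb, an AP-1 subunit, was higher per length (132 and 159 TPM, against 123 TPM in each culture for Ets2). Without MK1 replicate 1, 1 factor was called higher and 7 lower, without MK1 replicate 2, 2 were called higher, and under the replicate block, 3 were.

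**Figure D5:**
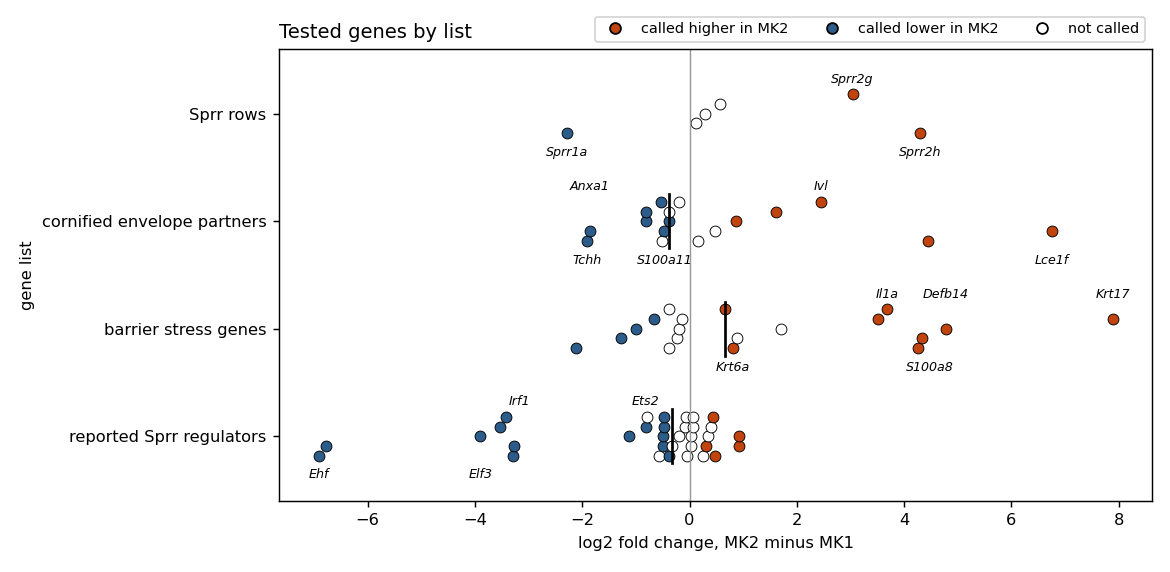
Log2 fold change of MK2 minus MK1 for the tested genes of each list; filled points passed the test and open points did not, and the vertical bar is a list's median. Envelope partners and stress genes spread to both sides, and Ehf and Elf3 lie at -6.91 and -3.90.

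Depth and cell type markers bear on all of these values. Libraries held 25237391 and 28601806 counts in MK2 and 30261111 and 26693849 counts in MK1. All 6 basal keratinocyte markers were detected, with sums of 17764 to 20706 CPM in MK2 and 21215 to 21493 CPM in MK1, mostly Krt14 and Krt5. Krt15 was far lower, at 27.9 and 0.247 CPM in the MK2 cultures and 4.77 and 4.47 CPM in the MK1 cultures. Of 7 suprabasal markers Krt1 and Krt2 had 0 counts everywhere, and the sums were 55.2 and 71.8 CPM in MK2 and 14.1 and 11.8 CPM in MK1, mostly Ivl. Simple-epithelial markers (6 of 6 detected) summed to 140 and 254 CPM in MK2 and to 4027 and 4169 CPM in MK1. Leukocyte markers (9 of 9 with at least 1 count) summed to 2.46 and 3.28 CPM in MK2 and to 46.3 and 43.2 CPM in MK1, urothelial markers to 26.7 and 9.52 CPM in MK2 and to 116 and 113 CPM in MK1, nearly all Upk1b, which also made up most of the markers of non-keratinised stratified epithelium (27.4 and 9.24 CPM in MK2, 116 and 112 CPM in MK1). Fibroblast markers summed to 1.03 and 1.41 CPM in MK2 and to 3.88 and 3.35 CPM in MK1, and the fibroblast genes Dcn, Lum and Pdgfrb had 0 counts. Endothelial and melanocyte markers summed to at most 27.4 and 6.05 CPM in any library. The part of these marker differences in the Sprr values was not tested.

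The gene whose pattern over the 4 libraries was most like that of Sprr1b was Rnf208, which encodes a RING finger protein. It had 20 and 15 CPM in the MK2 cultures and 18.2 and 14.7 CPM in the MK1 cultures. Likeness was measured as the Euclidean distance between log2 CPM profiles centred on their means, and was 0.0733 for Rnf208, 0.0752 for 1700001L05Rik and 0.0945 for Gm10789. All 3 share with Sprr1b a lower level in replicate 2 than in replicate 1 of both lines.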

How the data were processed

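RNA from 4 libraries, 2 each of the lines MK2 and MK1, was measured as read counts. Per the file headers, the authors counted reads of TopHat alignments in exons of the UCSC mm10 genes with featureCounts 1.4.6-p4 and deposited raw counts per gene, not normalised, beside the other quantity of that table, the summed exon length. Its recorded command names neither strandedness nor paired ends nor multiply aligned reads. The submitters' processing notes name DESeq2 1.10.1, featureCounts 1.5.0, Bowtie2 2.2.6 and TopHat2 2.0.13.

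Genes were filtered with filterByExpr (minimum count 10), scaled with TMM and tested in edgeR 4.0.16 by the quasi-likelihood test, MK2 against MK1, with Benjamini-Hochberg adjustment over 12479 genes at 0.05, two-sided. CPM use TMM-scaled library sizes, and TPM the deposited lengths. SE is the log2 fold change over the square root of its F value. DESeq2 1.42.0 and the other alternatives are described at the end. The procedure was tested on simulated data.

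Replicates differed beyond counting noise (median chi-square per gene 4.28 in MK2 and 2.88 in MK1), so none was counted as a repeat. The 9 members and all lists were chosen with earlier results of these data known. Named genes are the members, other Sprr rows, rows within 200 kb, up to 4 called genes with the largest change at 1 CPM or more in 1 line and the most abundant gene of each list, and the 3 profiles nearest to the most abundant member. A gene that met the rule is not reported here. Genes named outside that rule, such as the markers, were chosen after their values were seen. Transcripts came from GENCODE M21 (13 Sprr rows matched) and promoters from RefSeq, GRCm38.p6. P-values set the difference between the lines against the spread between their cultures, and do not extend to other keratinocyte lines.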

Additional observations from a re-analysis of the deposited data

How the results depend on the processing

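Of 268 log2 fold changes of 23 genes recomputed under 12 alternatives, 237 kept their direction and their side of the threshold, 18 lost their call, 4 gained one and 9 turned sign. Leaving out 1 library each, the genes called ranged from 3716 to 6847 (6810 with all), those beyond 2-fold from 985 to 1717 (1662 with all) and the members called from 1 to 3 (3 with all). With a minimum count of 50, 1 member was called, since only 2 were tested. Signs turned when single libraries were left out: the log2 fold change ranged from -0.09 to 0.33 for Sprr1b, from -0.07 to 0.58 for Sprr2j-ps, from -0.13 to 0.28 for Rnf208, from -0.14 to 0.28 for 1700001L05Rik and from -0.11 to 0.44 for Gm10789; the cause was not tested. Over the tested genes, differences between replicate 2 and replicate 1 had a weak negative correlation between the lines (-0.151). Single genes could go the same way in both lines, as Sprr1b did (ratios of 0.756 in MK2 and 0.758 in MK1). Nothing in the labels pairs the replicates. With the replicate number as a block 5908 genes, 1450 of them beyond 2-fold, and 3 members were called. With the crossed pairing, chosen after seeing the data, 7454 genes, 1878 of them beyond 2-fold, and 3 members were called. Under the block the log2 fold changes of Sprr2g, Sprr2h and Sprr1a were 3.02, 3.82 and -1.99. The lowest counts of genes called came without MK1 replicate 1. Defb14 was not tested without MK2 replicate 2. With 2 cultures a line and at most 179 counts in a library, precision was limited for Sprr1a, Sprr2g and Sprr2h.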
